A study of Mus musculus with 10 samples.

Results

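This account covers 5 genes of the plasminogen activator system out of the 25229 genes listed in a table of RNA-seq read counts. They are the activators Plau (urokinase) and Plat (tissue-type plasminogen activator), the urokinase receptor Plaur, and the inhibitors Serpinb2 and Serpine2. Members were found by their gene symbol, and all 5 passed the filter on low counts that left 14251 genes. The group was selected with its values in FICZ- and DMSO-treated libraries known, as groups and as same-numbered pairs, so its differences in that contrast are given as descriptions, with no p-value. No numeric threshold was part of the choice.

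The libraries came from adipose tissue stem and precursor cells (ASPCs) of wild-type (WT) mice. ASPCs were sorted from the stromovascular fraction (SVF) of gonadal white adipose tissue (gWAT) as CD45-CD31-Pdgfra+ cells, then grown to confluence with no passage. One group of 5 received 100 nM FICZ, a tryptophan-derived ligand of the aryl hydrocarbon receptor (AHR), for 6 hr, and the other group of 5 received the DMSO vehicle. Age and sex of the mice, and whether a replicate number stands for an animal, a pool or a culture, were not given in the sources used here, so any p-value measures the spread between these libraries, which may be technical. Both groups were WT, with no transgene or deletion named in the labels.

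Plasminogen activators are serine proteases that cut plasminogen to plasmin, which degrades fibrin and other matrix proteins. Plaur holds urokinase at the cell surface, while serpins inactivate the activators by trapping them in a covalent complex. In adipose stroma, this system is known for its part in matrix remodelling.

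Library totals ran from 38328611 to 50210111 counts, and values are given as CPM, read counts scaled to a common library size. A level of 3 counts corresponded to between 0.0603 and 0.0787 CPM. AHR targets were checked first. Cyp1a1, an AHR-induced monooxygenase, rose by 3.25 ± 0.38 (SE) on the log2 scale and the AHR repressor Ahrr rose by 1.66 ± 0.16 (edgeR quasi-likelihood test, Benjamini-Hochberg adjusted p = 0.0189 and 0.0032, n = 5 per group). Tiparp, another AHR target, rose by 0.91 ± 0.12 (adjusted p = 0.0335 in edgeR). Cyp1b1 had a log2 difference of 0.62 ± 0.10 and was higher in 5 of 5 pairs, with every FICZ library above every DMSO library. It did not pass in edgeR (adjusted p = 0.147) but did in DESeq2 with treatment only (adjusted p = 3.3e-05). Pdgfra, the sorted marker, was at 1320 ± 88.3 CPM (SD, n = 5) with DMSO and 1387 ± 118 CPM with FICZ. Ptprc (CD45), a marker the sort removed, had between 7 and 83 counts, with the most in DMSO replicate 5, and Pecam1 (CD31) had between 22 and 79. DMSO replicate 5 stood apart in its liver transcripts, which are given beside the genes they touch.

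The promoters of Serpinb2 and Plaur are shown because both hold the AP-1 letters TGANTCA, and that of Serpine2 for comparison, because its base composition lies at the other end. RefSeq promoter windows of 250 bases before to 50 after the start were matched for 3 of the 5 members (build GRCm38.p6). Each runs 5′ to 3′ on the gene's strand, and capitals mark the match to TGANTCA. Serpinb2 lies at chr1:107511173-107511472 on the plus strand, Plaur at chr7:24462233-24462532 on the plus strand, and Serpine2 at chr1:79858616-79858915 on the minus strand.
Serpinb2: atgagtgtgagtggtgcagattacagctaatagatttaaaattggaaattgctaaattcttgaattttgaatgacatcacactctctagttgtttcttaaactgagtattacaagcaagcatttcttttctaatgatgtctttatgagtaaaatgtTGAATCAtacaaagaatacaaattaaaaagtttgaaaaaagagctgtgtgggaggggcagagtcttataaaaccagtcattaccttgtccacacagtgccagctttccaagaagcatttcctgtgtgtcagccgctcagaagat
Plaur: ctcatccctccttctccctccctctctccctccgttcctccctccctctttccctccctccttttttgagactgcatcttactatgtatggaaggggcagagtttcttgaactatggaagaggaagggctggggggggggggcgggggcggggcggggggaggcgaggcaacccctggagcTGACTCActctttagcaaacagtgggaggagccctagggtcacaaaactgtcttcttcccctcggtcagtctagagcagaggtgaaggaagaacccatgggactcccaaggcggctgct
Serpine2: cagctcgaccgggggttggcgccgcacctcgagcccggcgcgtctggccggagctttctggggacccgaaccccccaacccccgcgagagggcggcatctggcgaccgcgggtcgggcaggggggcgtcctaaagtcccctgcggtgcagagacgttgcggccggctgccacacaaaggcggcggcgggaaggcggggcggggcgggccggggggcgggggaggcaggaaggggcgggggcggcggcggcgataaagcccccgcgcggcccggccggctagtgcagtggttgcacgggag

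In Serpinb2 the match TGAATCA began 94 bases before the start, and in Plaur the match TGACTCA began 69 bases before it. A second RefSeq start of Serpinb2 gave a window that held the same match. On either strand, TGANTCA was found in 7.81% of 32851 RefSeq promoter windows. The AHR core GCGTG (in 32.39% of windows), its longer form TNGCGTG (in 5.07%), which contains GCGTG, and the cAMP-response letters TGACGTCA (in 1.79%) were in none of the 3 windows shown. The Serpinb2 window was 35.3% G or C, at percentile 4.30 of all windows, whereas that of Serpine2 was 77.7%, at percentile 98.1, and that of Plaur 59.3%. These letters are a description of the windows only.

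Serpinb2 (PAI-2), a clade B serpin that inhibits urokinase and lacks a cleaved signal peptide, was the member that differed most between the groups. It lies on chromosome 1 at 107511423 to 107535478, plus strand (GRCm38, GENCODE M21). With DMSO, its level in replicates 1 to 5 was 17.0, 11.6, 18.4, 5.39 and 6.36 CPM, from 234 to 805 counts. With FICZ, it was 31.0, 32.8, 34.1, 15.0 and 13.5 CPM, from 585 to 1544 counts. FICZ replicates 4 and 5 lay below DMSO replicates 1 and 3, so the groups overlapped, but each FICZ library was above the DMSO library of its own number.

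The means were 11.8 ± 5.95 CPM (SD, n = 5) with DMSO and 25.3 ± 10.1 CPM with FICZ. The fitted log2 difference, FICZ over DMSO, was 1.11 ± 0.38 (SE), or 2.15-fold. Within pairs 1 to 5, the log2 difference was 0.87, 1.49, 0.89, 1.47 and 1.08. Serpinb2 was thus higher with FICZ in 5 of 5 pairs, by between 1.82- and 2.81-fold. Of all genes tested, 4.32% were higher in all 5 pairs and 0.47% had groups that did not overlap.

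Replicates 4 and 5 had the lowest Serpinb2 in both groups, and the pairs with the lowest levels did not have the smallest ratios. With replicate number as a block, the log2 difference was 1.16 ± 0.12 (SE). The SE was thus smaller with the block, at a similar difference. Without the block, edgeR called 0 of the 5 members at an adjusted p of 0.05, beside 0.0211% of all genes. At an unadjusted p of 0.05, 1 member, Serpinb2, was higher with FICZ. At that unadjusted p, 1.33% of all genes were higher and 3.49% were lower. DESeq2 without the block also called 0 members, beside 0.0845% of all genes. With the block, both edgeR (0.0561% of all genes called) and DESeq2 (0.14%) called 1 member, Serpinb2. In edgeR it was in place 104 by p-value without the block and in place 8 with it. Serpinb2 was called in none of the 5 fits with the block that left out 1 pair, though its log2 difference stayed between 1.07 and 1.22. The group was selected on this contrast, so nothing is read from these calls or from the places by p-value.

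**Figure D1:**
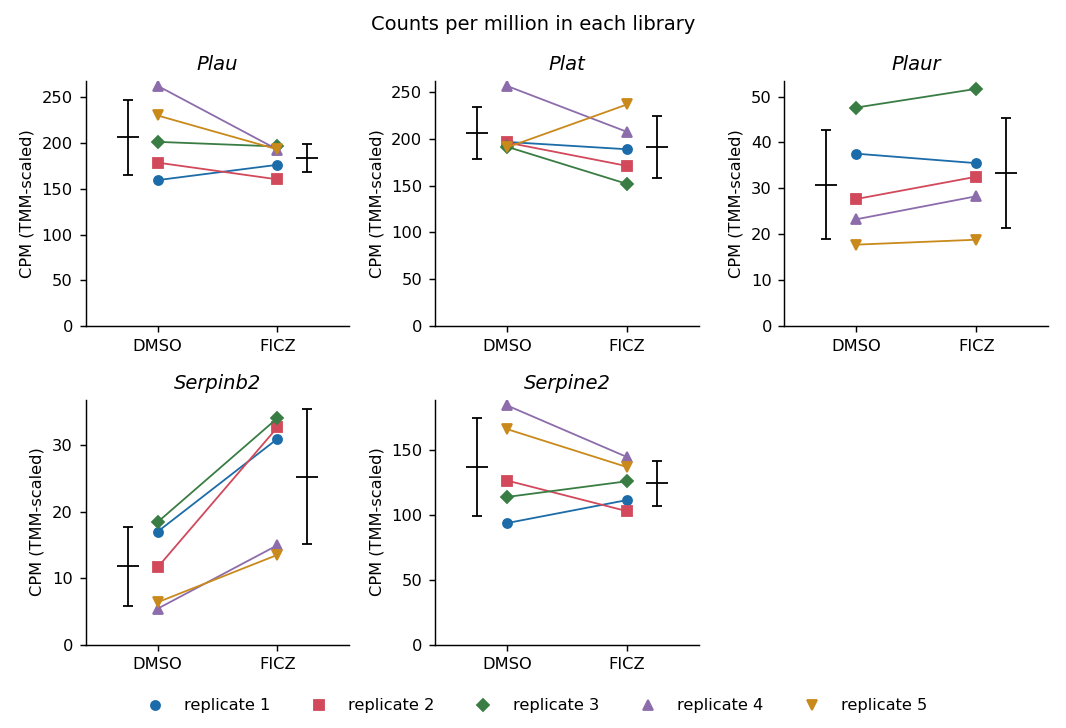
Level of each member in every library (CPM, vertical axis) with DMSO and FICZ (horizontal axis); symbols are libraries, lines join those of the same replicate number, and black bars are the mean ± SD (n = 5). Serpinb2 went up from DMSO to FICZ on all 5 lines, from 5.39 to 18.4 CPM with DMSO to 13.5 to 34.1 CPM with FICZ, while the other members had lines in both directions.

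Of the exonic bases of Serpinb2, 291 of 2349 overlap Serpinb10, annotated as a polymorphic pseudogene on the same strand, and 10.4% of its 50-base words occur there too. How such reads were counted was not given in the sources used here. Serpinb10 itself had at most 2 counts in any library. Within 500000 bases, the clade B genes Serpinb3a, Serpinb3b, Serpinb3c, Serpinb3d and Serpinb11 had 0 counts in every library, and Serpinb7, 58734 bases away, had at most 10. Serpinb8, 54528 bases away on the other side, had between 401 and 1037 counts. Its log2 difference with the block was −0.23 ± 0.09 (SE), opposite in sign to that of Serpinb2.

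Serpine2 (protease nexin 1), a secreted inhibitor of thrombin, urokinase and tissue-type plasminogen activator, lies on chromosome 1 at 79794197 to 79861180, minus strand. Its level with DMSO was 93.8, 127, 114, 185 and 166 CPM in replicates 1 to 5. The same replicates with FICZ were at 112, 103, 126, 145 and 137 CPM. The FICZ values lay within the DMSO range. The log2 difference was −0.14 ± 0.17 (SE) without the block and −0.11 ± 0.11 with it, and 2 of 5 pairs were higher with FICZ.

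Serpine2 and Serpinb2 ran in opposite order over the libraries. Replicates 4 and 5, lowest for Serpinb2, were highest for Serpine2 in both groups. Pearson's r of their log2 CPM was −0.78 over 10 libraries, and −0.89 for deviations from the group means. Per kilobase of exon, the Serpinb2 level was 0.639, 0.323, 0.571, 0.103 and 0.135 times that of Serpine2 in DMSO replicates 1 to 5. With FICZ, the ratio was 0.980, 1.12, 0.954, 0.365 and 0.348. The ratio was higher with FICZ in each pair. Its size depends on the exon lengths used, since the annotated exons of Serpine2 cover 8287 bases and its longest transcript 3393, so which of the pair was the more abundant is not read from it.

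Plau, the urokinase that Plaur binds, lies on chromosome 14 at 20836660 to 20843385, plus strand. With DMSO, it was at 160, 179, 201, 263 and 230 CPM in replicates 1 to 5. With FICZ, it was at 176, 160, 196, 193 and 193 CPM. All FICZ libraries lay within the DMSO range, and their SD was 15.3 CPM against 41.0 CPM with DMSO (n = 5 each). The log2 difference was −0.17 ± 0.13 (SE), or −0.15 ± 0.09 with the block, and only pair 1 was higher with FICZ.

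Plat, whose product acts mainly on fibrin-bound plasminogen, lies on chromosome 8 at 22757727 to 22782844, plus strand. Its DMSO libraries were at 197, 196, 191, 256 and 191 CPM, with replicate 4 well above the other 4. Its FICZ libraries were at 189, 171, 152, 207 and 237 CPM. The groups overlapped. The log2 difference was −0.11 ± 0.13 (SE), or −0.12 ± 0.10 with the block, and only pair 5 was higher with FICZ.

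Plaur, a receptor anchored in the membrane by a lipid, lies on chromosome 7 at 24462484 to 24475968, plus strand. It was at 37.6, 27.7, 47.6, 23.3 and 17.7 CPM in DMSO replicates 1 to 5. With FICZ, the same replicates were at 35.5, 32.5, 51.7, 28.3 and 18.8 CPM. The order of the 5 replicate numbers was the same in both groups, with replicate 3 highest and replicate 5 lowest. The log2 difference was 0.12 ± 0.29 (SE), or 0.13 ± 0.07 with the block, and 4 of 5 pairs were higher with FICZ. Without the block, its sign turned when 1 library was left out, to −0.03 without DMSO replicate 5 and to −0.10 without FICZ replicate 3.

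**Figure D2:**
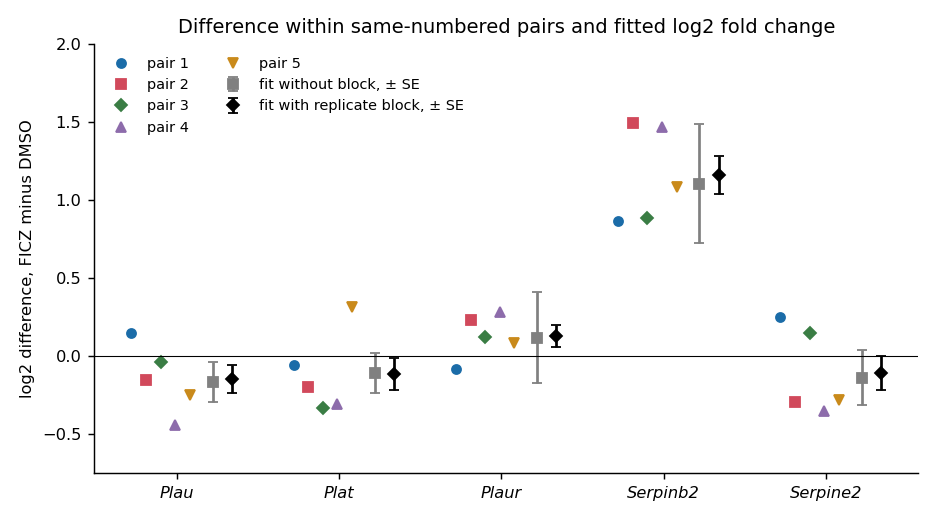
Log2 difference FICZ minus DMSO (vertical axis, log2 CPM) of each member; coloured symbols are the 5 same-numbered pairs, and the grey square and black diamond are the fitted differences ± SE without and with the replicate block. The pairs of Serpinb2 lay between 0.87 and 1.49, and for each of the other members at least 1 pair fell on either side of 0.

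The replicate number held a large share of the spread for Plaur, but a share near that of the median gene for Plau, Plat and Serpinb2. Of the sum of squares of log2 CPM over the 10 libraries, the replicate number held 96.7% for Plaur, at percentile 99.3 of all tested genes. That share was 77.5% for Serpine2, 65.1% for Plau, 58.0% for Plat and 53.8% for Serpinb2, beside a median of 58.1% over all genes tested. These 4 lay at percentiles 77.1, 59.8, 49.8 and 43.7. The replicate number has 4 of the 9 degrees of freedom and so holds a share by design. Treatment held 43.7% for Serpinb2, against 12.6% for Plau, 8.36% for Plat, 3.41% for Serpine2 and 1.67% for Plaur, and a median of 4.35% over all genes. The treatment share was part of the contrast that chose the members.

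**Figure D3:**
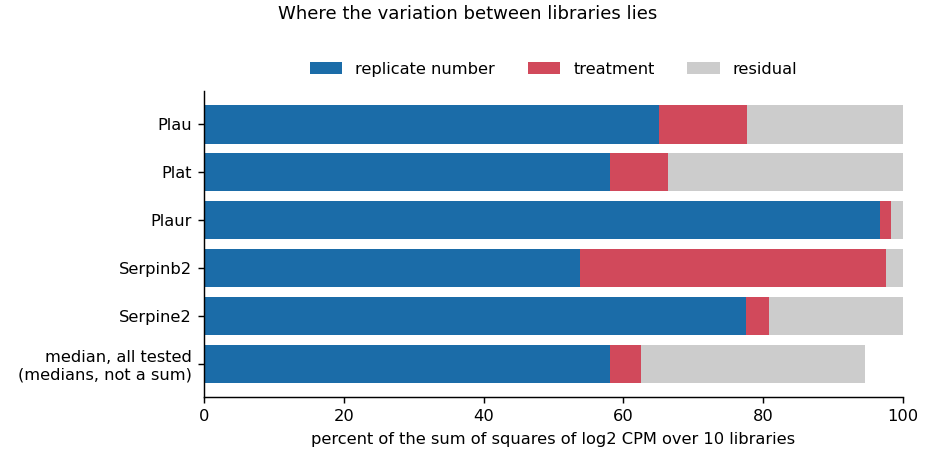
Share of the sum of squares of log2 CPM over 10 libraries (horizontal axis, %) held by replicate number, treatment and the residual, for each member and the median of all tested genes. For Plaur the replicate number held 96.7%, and for Serpinb2 the replicate number held 53.8% and treatment 43.7%; the bar of medians need not add up to the whole.

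The members fell into sets that ran together over the libraries. Plau and Serpine2 had r = 0.91 over 10 libraries and 0.92 for deviations from the group means. Serpinb2 and Plaur had r = 0.88 for deviations and 0.74 over all 10 libraries. Serpinb2 ran against Plau (r = −0.74 over 10 libraries) and Plat (r = −0.73). The libraries share replicate numbers, so each r is given as a description, with no p-value.

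Among 14250 other genes, those most like each member by r of log2 CPM over 10 libraries were listed, as a likeness of pattern only. For Serpinb2 they were Eif5 (0.97), a translation initiation factor, Pdgfc (0.97), a growth factor cut to its active form by Plat, and Ccno (0.96). For Plaur they were Trmt61a (0.99), Hgh1 (0.99) and Pvr (0.98). For Plau they were St6galnac2 (0.96), the glutamine transporter Slc1a5 (0.96) and Mrap (0.92). For Plat they were Eno2 (0.96), the ligand Wnt4 (0.96) and Hpca (0.95). For Serpine2 they were 9330159F19Rik (0.96), Gng7 (0.95) and Olfr1033 (0.95).

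Levels of different genes were compared per kilobase (kb) of exon. With DMSO, the order from the top was Plau at 87.3 ± 17.3 CPM per kb (SD, n = 5), Plat at 33.0 ± 4.51, Serpine2 at 16.6 ± 4.53, Plaur at 11.8 ± 4.54 and Serpinb2 at 5.01 ± 2.53 CPM per kb. Plau exceeded Plat in 5 of 5 DMSO libraries, by 1.39 ± 0.22 (SD) on the log2 scale. Plat exceeded Serpine2 in 5 of 5, by 1.03 ± 0.32. Serpine2 and Plaur, with a log2 difference of 0.54 ± 0.91, did not differ beyond their spread. With the longest transcript as length, the mean DMSO log2 levels were 5.66 for Plat, 5.29 for Serpine2 and 3.85 for Plaur. Serpine2 then lay nearer to Plat and further from Plaur, so both comparisons of Serpine2 hold only for the exon length used.

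Serpinb2 was lowest with DMSO, 1.32 ± 0.38 (SD) below Plaur on the log2 scale and lower in 5 of 5 libraries. With FICZ it was at 10.8 ± 4.32 CPM per kb, 0.28 ± 0.36 below Plaur, a difference within the spread. Serpinb2 was still the lowest by its mean, and lower than Plaur in 4 of 5 FICZ libraries. Serpine2 was above Plaur in 2 of 5 FICZ libraries. Plau was at 77.7 ± 6.46, Plat at 30.6 ± 5.25, Serpine2 at 15.0 ± 2.09 and Plaur at 12.7 ± 4.60 CPM per kb. The distance of Serpine2 from its neighbours, and the number of libraries in which it lies above Plaur or below Plat, depend on the length used.

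**Figure D4:**
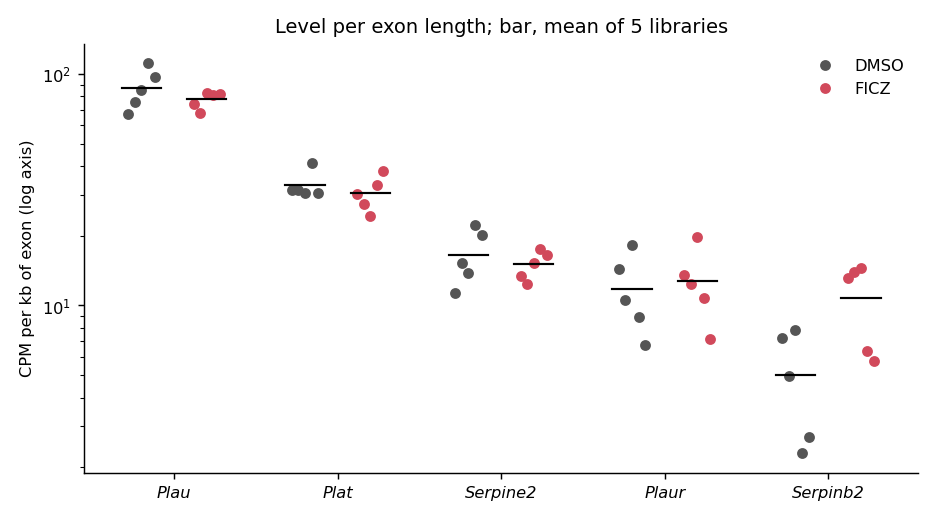
Level per kilobase of exon (CPM per kb, log axis) of the members in each of the 5 DMSO and 5 FICZ libraries; points are libraries and black bars the means. Plau led with a DMSO mean of 87.3, and Serpinb2 moved from 5.01 to 10.8 CPM per kb, near Plaur at 12.7.

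The ratio of urokinase to its receptor also followed the replicate numbers. Per kb, Plau was at 4.70, 7.14, 4.68, 12.5 and 14.4 times the level of Plaur in DMSO replicates 1 to 5. With FICZ, the ratio was 5.49, 5.45, 4.20, 7.54 and 11.4. The groups overlapped, and the ratio was lowest in replicate 3 and highest in replicate 5 of both groups. These are ratios of transcripts, not of proteins or activity.

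The wider system was described by 67 further genes in 9 roles, of which 53 were tested. Their median log2 difference was −0.06, beside 0.01 over all genes. Without the block, 0 of 53 passed an adjusted p of 0.05 in edgeR, and 0 of 60 in DESeq2. At an unadjusted p of 0.05, 0 of 53 were higher in edgeR (1.33% of all genes) and 12 were lower (3.49% of all genes). With the block, 3 were higher (2.48% of all genes) and 1 was lower (2.17%), and 0 passed the adjusted p.

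The 12 genes lower at that unadjusted p are known as products of the liver. They were the substrate Plg (plasminogen), the fibrinolysis inhibitors Serpinf2 and Cpb2, the Plaur partner Vtn, the upstream proteases F12 and Hpn, F2 (prothrombin), the fibrinogen chains Fga, Fgb and Fgg, and the serpins Serpind1 and Serpinc1. Plg was at 69.7 ± 57.6 CPM (SD, n = 5) with DMSO and 31.6 ± 4.61 CPM with FICZ. Each of the 12 was highest in DMSO replicate 5, by 2.20 to 2.78 times the next library, and had r of 0.975 to 0.999 with Alb (albumin) over the libraries. Without DMSO replicate 5, 0 of the 12 reached an unadjusted p of 0.05, and their log2 differences ran from −0.65 to −0.37 in place of −1.24 to −1.02. The 7 hepatocyte markers, none of them at 3 counts or fewer in every library, summed to between 1017 and 6804 CPM with DMSO, the highest in replicate 5, and between 986 and 1518 CPM with FICZ. For the members, r with Alb lay between −0.53 and 0.41. Without DMSO replicate 5, the log2 difference of Serpinb2 was 0.95 ± 0.38 (SE).

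With the block, the 3 higher at an unadjusted p of 0.05 were Pdgfc, at a log2 difference of 0.50 ± 0.11 (SE), Serpinb6c at 0.46 ± 0.15 and the apolipoprotein E receptor Lrp8 at 0.26 ± 0.10. Pdgfc was at 4.14 ± 1.21 CPM (SD, n = 5) with DMSO and 5.84 ± 1.55 CPM with FICZ, and was higher in 5 of 5 pairs. Both Lrp8 and Serpinb6c were lowest in DMSO replicate 5, and without it their log2 differences in the fit without the block were 0.15 in place of 0.24 and 0.13 in place of 0.38. Serpinb6c belongs to a family of related genes and had at most 274 counts, and the reads it may share with them were not measured. Serpinb8, named above, was the 1 lower gene. None of these 4 passed an adjusted p of 0.05 in edgeR.

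Apart from those products of the liver, the most abundant genes of the roles did not reach an unadjusted p of 0.05 in either fit. Lrp1, the endocytic receptor that clears activator and inhibitor complexes, was at 2918 ± 585 CPM (SD, n = 5) with DMSO and 3007 ± 667 CPM with FICZ. The 8 genes of endocytic clearance, receptors and the chaperone Lrpap1, had log2 differences between 0.03 and 0.24, but without DMSO replicate 5 those of Lrp1, Mrc2 and Igf2r were −0.06, −0.03 and −0.04. Anxa2, which binds plasminogen and Plat at the cell surface, was at 1127 ± 179 and 1121 ± 123 CPM, and the integrin chain Itgb1 at 1152 ± 100.2 and 1208 ± 107 CPM. F3 (tissue factor) was at 369 ± 85.1 and 329 ± 39.4 CPM, Serpinb6a at 588 ± 86.3 and 617 ± 103 CPM, and the collagen chaperone Serpinh1 at 1805 ± 273 and 1877 ± 146 CPM. Of the 19 other clade B serpins that were listed, which need not be the whole family, 8 were tested, and the others had too few counts.

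**Figure D5:**
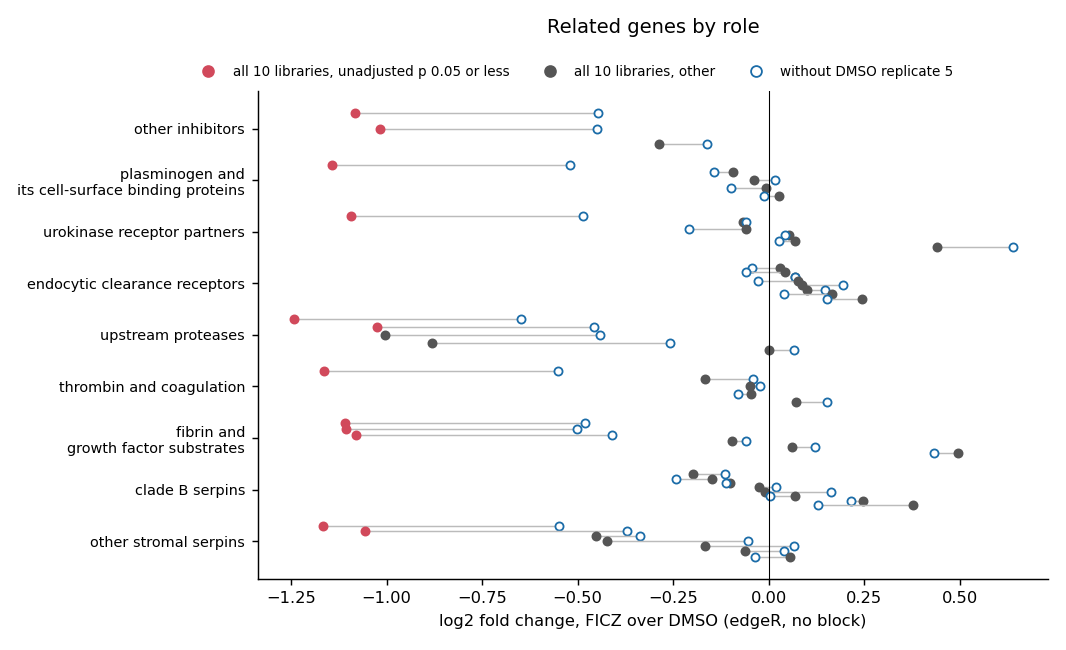
Log2 fold change FICZ over DMSO (horizontal axis, edgeR without the block) of the tested genes of each role in the system; filled points are all 10 libraries, red where the unadjusted p was 0.05 or less, and open points joined to them are the fit without DMSO replicate 5. The 12 red points lie between −1.24 and −1.02, their open points lie between −0.65 and −0.37, and the filled points of the endocytic clearance genes lie between 0.03 and 0.24.

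Markers of other cell types were summed in each library, since macrophages, among other cells, are known to express Serpinb2 and Plaur. The 7 macrophage markers summed to between 22.5 and 42.7 CPM with DMSO and between 21.0 and 33.8 CPM with FICZ, with the highest value in DMSO replicate 5. Of this sum, Csf1r gave a mean of 13.5 CPM and Cd68 6.80 CPM. Each macrophage marker but Csf1r was highest in DMSO replicate 5. The 7 mesothelial markers summed to between 65.3 and 86.4 CPM with DMSO and between 67.5 and 83.5 CPM with FICZ, of which Wt1 gave a mean of 67.1 CPM. Another of them, Upk3b, was at 1.82 ± 0.44 CPM (SD, n = 5) with DMSO and 2.26 ± 0.40 CPM with FICZ. It was higher with FICZ in 5 of 5 pairs, but the other mesothelial markers were not. Msln, Lrrn4 and Gpm6a were higher in 3 of 5 pairs, Upk1b and Wt1 in 2, and Krt19 in 1. The 6 endothelial markers summed to between 64.7 and 87.1 CPM, and between 69.4 and 84.3 CPM, of which Tek gave a mean of 65.0 CPM. Pecam1, at 1.48 ± 0.12 and 1.01 ± 0.36 CPM, and Emcn, at 0.50 ± 0.24 and 0.28 ± 0.16 CPM, were higher with FICZ in 0 of 5 pairs. Emcn was highest in DMSO replicate 5. Of the other endothelial markers, Cdh5 was higher in 1 pair, Kdr and Cldn5 in 2, and Tek in 3. How many of all genes were lower in every pair was not counted. Upk3b, Pecam1 and Emcn did not pass an adjusted p of 0.05 in edgeR in either fit. These 3 and the genes that make up most of each sum were named after their values were seen. Each of these markers was above 3 counts in at least 1 library, and their part in the values of the members was not tested. The 10 progenitor markers summed to between 10430 and 15336 CPM with DMSO and between 10220 and 13917 CPM with FICZ. Of this sum, Col3a1 gave a mean of 4839 CPM and Col1a1 3168 CPM. Cd34, at 183 ± 14.4 and 161 ± 13.4 CPM, was higher with FICZ in 0 of 5 pairs. Pdgfra, Dpp4 and Pi16 were higher in 4 pairs, and the other progenitor markers in 2. Cd34 did not pass an adjusted p of 0.05 in edgeR in either fit and was also named after its values were seen. In bulk libraries, a change in the share of cells that express a gene and a change in its RNA per cell cannot be told apart.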

How the data were processed

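RNA-seq was performed on 10 libraries of sorted, cultured ASPCs, 5 per group. Per the labels' processing notes, reads were aligned with STAR 2.7.7 to mm10. The authors deposited whole-number read counts per gene. The counting program, annotation and use of strand were not given in the sources used here. Counts were tested as deposited with the quasi-likelihood test of edgeR (version 4.0.16, limma 3.58.1, R 4.3.3), using TMM factors, edgeR's expression filter (14251 of 25229 genes) and Benjamini-Hochberg adjustment at 0.05. DESeq2 (version 1.42.0), other scaling factors, no filter, a replicate block and leaving out each library or pair were alternatives. CPM was scaled by TMM, and log2 CPM used a prior count of 2. Exon lengths came from GENCODE M21. The tests were checked on simulated data with the same spread set for all genes, so nothing about single members is read from that check.

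Replicate numbers come from the labels. Deviations from the group means of same-numbered libraries correlated in each pair (0.27, 0.28, 0.15, 0.32 and 0.24 for pairs 1 to 5, mean 0.25, against −0.06 for other numbers), so the numbers were taken to pair the libraries. The members, the lists of related genes and the markers were chosen with earlier results of these data known. Named were the 5 members, related genes with an unadjusted p of 0.05 or less in either fit, the most abundant gene of each role and the 3 genes most alike to each member. Serpinb10, its neighbours, Ptprc, Pecam1 and Alb were named after their values were seen. Total counts per library, from 38328611 to 50210111, limit the precision of low genes, and the CPM of 3 counts is given only as a low reference level. One related gene is not reported here.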

Additional observations from a re-analysis of the deposited data

Results flagged for a closer look

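A library counted as far from its group where its gap to the nearest library, divided by the range of the group, was above 0.71. This was examined in 54 groups of 5 libraries (27 genes, DMSO and FICZ). Chance alone marks about 1 in 20 independent groups, but many of these genes were chosen by their values and moved together. Of the members, Plat was marked in DMSO replicate 4, at 256 CPM against 197 CPM in the nearest library (gap over range 0.911). DMSO replicate 5 was the highest for Plg (167 CPM, nearest 66.5 CPM, 0.713), Fgg (259 CPM, nearest 95.9 CPM, 0.736) and Serpind1 (40.9 CPM, nearest 14.7 CPM, 0.742), and the lowest for Serpinh1 (1325 CPM, nearest 1855 CPM, 0.795). FICZ replicate 4 was the lowest for Fgg (35.3 CPM, nearest 49.7 CPM, 0.748). In all, 4 of the 6 marks were in DMSO replicate 5. Plg, Fgg and Serpind1 were examined for an unadjusted p of 0.05 or less (edgeR), which they did not reach without that library. Their marks there are thus partly a result of how they were chosen.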

How the results depend on the processing

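Of 110 log2 differences of members under the alternatives, 108 kept their sign and moved by less than the spread between replicates. The exceptions were both for Plaur, at −0.03 without DMSO replicate 5 and −0.10 without FICZ replicate 3, and the cause was not tested. That spread was the SD of log2 CPM within groups, 0.73 for Serpinb2 and 0.54 for Plaur. Leaving out 1 library or 1 pair can hardly move a difference so far, so the size of the moves is not read as stability. Over fits without 1 library, the log2 difference ran from 0.92 to 1.33 for Serpinb2, from −0.10 to 0.33 for Plaur, from −0.26 to −0.07 for Plau, from −0.21 to −0.02 for Plat and from −0.26 to −0.01 for Serpine2. The count of all genes past the adjusted p was 3, but 8 with the replicate block, 16 with DESeq2 and 26 with DESeq2 and the replicate block, and it ran from 1 to 4 without 1 library and from 1 to 8 with the block without 1 pair. The count of related genes at an unadjusted p of 0.05 was 12, but 4 with the replicate block in edgeR and 4 in DESeq2 with the block. Without 1 library it ran from 1 (without DMSO replicate 5) to 16, with 2 without FICZ replicate 4 and 7 without FICZ replicate 2, and with the block without 1 pair from 2 to 12. With the longest transcript as length, the DMSO log2 level per kb was 5.66 in place of 5.04 for Plat and 5.29 in place of 4.00 for Serpine2. The replicate block changed the call of no member other than Serpinb2. The sources do not say what a replicate number stands for, which limits how far pairs can be read as independent cultures.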
